A study of Homo sapiens with 9 samples.

Results

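The BCL2 family sets the threshold for mitochondrial apoptosis, and 10 of its genes were followed here through knockdown of LRWD1 in A673 cells, an established Ewing sarcoma cell line. The 10 genes were taken by symbol from the 23368 symbols of the count table, and all 10 were among the 13648 genes with enough counts to be tested. There were 4 pro-survival members (BCL2, BCL2L1, BCL2L2 and MCL1) and 6 pro-death members, of which 5 are BH3-only genes (BCL2L11, PMAIP1, BID, BMF and BAD) and 1 is an effector (BAK1). LRWD1 encodes a protein with WD repeats that partners the complex marking origins of DNA replication. The 9 RNA sequencing libraries formed 3 groups of 3: A673 cells with the siRNA siLRWD1-6, A673 cells with the siRNA siLRWD1-5, and A673 cells with a scrambled siRNA. All groups shared the siRNA dose of 13 nM, reverse transfection with a lipid reagent, RNA isolation 48 h later and a medium containing Zeocin and blasticidin. Within a group the libraries carry the series numbers 1 to 3, and the labels name 3 independent experiments, all in this 1 cell line, so the p-values measure the spread between those experiments.

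Pro-survival proteins of the family hold the effectors BAX and BAK in check at the outer mitochondrial membrane. BH3-only proteins respond to stress signals: they bind the groove of the pro-survival proteins through a short helix, the BH3 domain, and some also activate the effectors directly. Once active, the effectors permeabilise the membrane, cytochrome c leaves the mitochondria and caspases are switched on. Much of this control lies in protein binding, modification and turnover, which transcript counts do not measure.

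The BH3 region is what the 10 proteins have in common, and it is where a pro-death and a pro-survival member meet, so its coding bases are shown for each. The coding sequence of each gene's principal transcript (GENCODE v29, GRCh38, coding strand) was searched for a codon pattern: leucine or methionine, any 2 residues, then alanine, phenylalanine, isoleucine, methionine or valine, then alanine, glycine or serine, then aspartate. The lines below give 36 bases per gene, 5′ to 3′, with the first codon of the pattern and its last pair of codons in capitals.
BCL2: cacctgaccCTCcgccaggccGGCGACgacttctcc
BCL2L1: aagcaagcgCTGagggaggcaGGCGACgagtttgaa
BCL2L2: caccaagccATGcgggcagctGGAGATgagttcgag
MCL1: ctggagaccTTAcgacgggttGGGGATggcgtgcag
BCL2L11: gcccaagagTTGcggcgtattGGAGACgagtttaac
PMAIP1: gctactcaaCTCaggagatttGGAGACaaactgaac
BID: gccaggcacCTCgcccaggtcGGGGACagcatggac
BMF: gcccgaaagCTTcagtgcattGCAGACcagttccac
BAD: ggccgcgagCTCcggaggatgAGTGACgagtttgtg
BAK1: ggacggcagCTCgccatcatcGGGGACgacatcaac
Each of the 10 held 1 match. These matches locate the region and test nothing, since the pattern's options include residues found in only 1 of the 10. The pattern is loose: 14.1% of 19565 protein-coding genes held at least 1 match in any coding transcript, a wider search than the principal transcript used for the members. BCL2L2 began it with a methionine codon and the other 9 with a leucine codon, and the small residue before aspartate was coded as serine in BAD, as alanine in BMF and as glycine in the other 8. The proteins of the principal transcripts ranged from 54 residues for PMAIP1 to 350 for MCL1, whose long and loosely folded start precedes the BH3 region.

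Library totals ranged from 11971179 to 15674452 counted reads, and levels are given as CPM, each count relative to a library total scaled by TMM. LRWD1 itself had 7.73 ± 1.05 CPM in the siLRWD1-6 group, 10.8 ± 0.50 CPM in the siLRWD1-5 group and 51.0 ± 3.13 CPM in the scrambled group (SD, n = 3 each). It fell with both siRNAs, with log2 differences of -2.72 and -2.24. Of 8 Ewing sarcoma markers, 7 exceeded 1 CPM in every library. The exception was CD99, a defining surface marker of this tumour, which had 0 to 3.70 CPM; whether that reflects the counting was not tested. Markers of blood, endothelial, epithelial and muscle cells summed to at most 1.78 CPM in a siLRWD1-6 library, 2.43 CPM in a siLRWD1-5 library and 1.46 CPM in a scrambled library, with CD3E and MYOD1 at 0 throughout. The second scrambled library stood apart: its chi-square per gene against the other scrambled libraries was 28.4 and 24.2, whereas the other 7 within-group pairs of libraries gave 2.98 to 5.45. Against the mean of the other scrambled libraries, that library was higher by over 0.3 on the log2 scale for 3 members (BID by 0.64, PMAIP1 by 0.40 and MCL1 by 0.33). It was lower by over 0.3 for another 3 (BCL2 at -0.63, BMF at -0.57 and BCL2L11 at -0.46). The share of all tested genes past 0.3 was not counted, so these values are not a trait of the family. Results against the scrambled group are given with and without the second scrambled library where it matters.

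The calls of the 2 siRNAs fell on different members of the family, in a setting where 16.6% of all tested genes were called with siLRWD1-6 and 38.8% with siLRWD1-5. With siLRWD1-5, BCL2L11 and BID rose and PMAIP1 fell, all of them BH3-only genes, and 0 of 4 pro-survival genes passed the test by edgeR (also 0 at an unadjusted p under 0.05, by DESeq2 and by limma-voom). With siLRWD1-6, MCL1 and BMF rose while BCL2L2 and BAD fell. With both siRNAs 0 of 10 members, and 8.83% of all tested genes, passed the test by edgeR, so an overlap of 0 among so few genes is near the background. The members' count was also 0 by DESeq2 or limma-voom, although at an unadjusted p under 0.05 by edgeR BCL2L11 was higher with both and BMF was higher with siLRWD1-6 and lower with siLRWD1-5. Set directly against each other, the siRNAs differed in the 7 members that either had moved, including all 5 BH3-only genes, beside 43.4% of all tested genes. BCL2, BCL2L1 and BAK1 passed the test in no comparison. In bulk RNA, a shift in every cell and a shift in the share of cells that express a gene cannot be told apart.

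**Figure D1:**
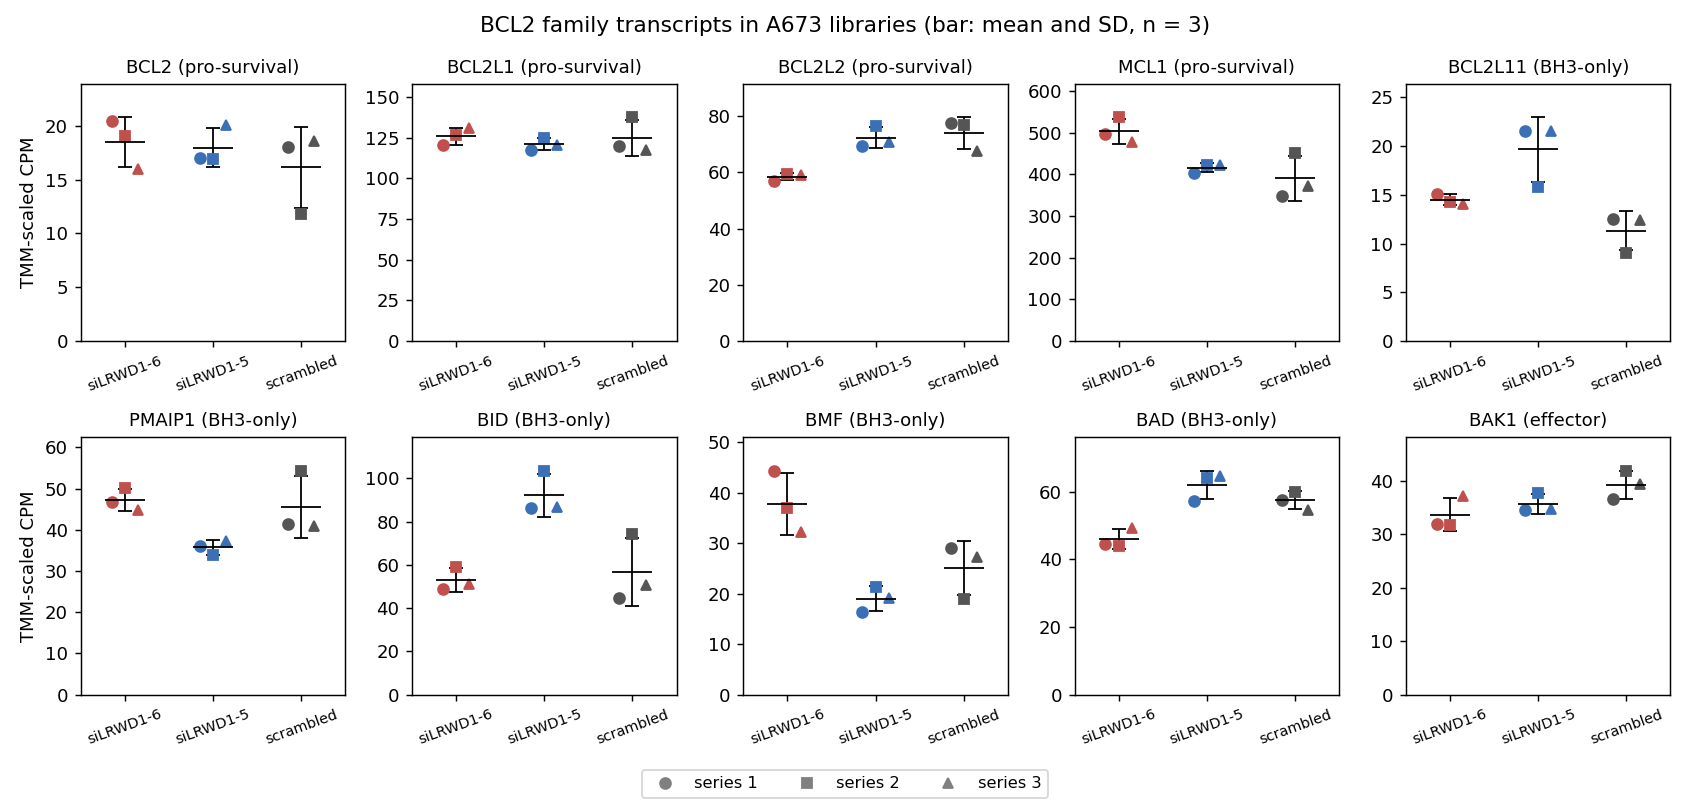
TMM-scaled CPM of the 10 members in each library, with siLRWD1-6, siLRWD1-5 and scrambled from left to right in each panel; points are libraries by series number and bars are the mean and SD of 3 libraries. BID stands highest in all 3 siLRWD1-5 libraries, BMF and MCL1 in all 3 siLRWD1-6 libraries, and the scrambled library of series 2 lies away from the other scrambled libraries for BID, BMF, BCL2 and PMAIP1.

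Among the BH3-only genes, BCL2L11 encodes BIM, which binds every pro-survival protein of the family and can activate BAX and BAK. It had 15.1, 14.2 and 14.0 CPM in series 1 to 3 of siLRWD1-6, 21.5, 15.8 and 21.6 CPM with siLRWD1-5 and 12.5, 8.99 and 12.4 CPM in scrambled cells. Every library of either siRNA was above every scrambled library, and every siLRWD1-5 library was above every siLRWD1-6 library. With siLRWD1-5 it rose 1.73-fold (log2 0.79, SE 0.15; edgeR quasi-likelihood adjusted p = 0.0016). Same-numbered libraries differed by 0.78, 0.81 and 0.79 on the log2 scale, although the numbers are only a hint of pairing. The value of 0.81 sets the lowest siLRWD1-5 library (15.8 CPM) against the second scrambled library (8.99 CPM). The call held in all 18 alternative settings tried, with a log2 difference of 0.66 (edgeR adjusted p = 0.00025) without the second scrambled library. With siLRWD1-6 the log2 difference was 0.35 (SE 0.15) and did not pass the adjustment (edgeR quasi-likelihood adjusted p = 0.15), and it was 0.23 (adjusted p = 0.22) without the second scrambled library.

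BID, which links death receptors to mitochondria once caspase-8 has cleaved it, had 48.7, 59.1 and 51.2 CPM with siLRWD1-6, 86.3, 103.5 and 86.6 CPM with siLRWD1-5 and 44.8, 74.3 and 50.9 CPM in scrambled cells. All 3 siLRWD1-5 libraries were above all of the others, and the siLRWD1-6 and scrambled libraries overlapped. BID rose 1.63-fold with siLRWD1-5 (log2 0.71, SE 0.17; adjusted p = 0.010), and by 0.95 on the log2 scale without the second scrambled library, and the call held in all 18 alternatives. With siLRWD1-6 its log2 difference was -0.09 (SE 0.18; adjusted p = 0.77), and 0.16 without that library.

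PMAIP1 encodes NOXA, a short-lived BH3-only protein that binds mainly MCL1 and promotes its turnover. It had 46.7, 50.2 and 44.8 CPM with siLRWD1-6, 36.2, 33.8 and 37.3 CPM with siLRWD1-5 and 41.5, 54.3 and 40.9 CPM in scrambled cells. It was lowest in all 3 siLRWD1-5 libraries. The fall with siLRWD1-5 was 1.27-fold (log2 -0.35, SE 0.11; adjusted p = 0.024). This call was lost in 4 of 18 alternatives: with only the groups compared in the fit (adjusted p = 0.055), with only the libraries of series 1 and 3 (log2 -0.16, adjusted p = 0.14), without siLRWD1-5 replicate 1 (adjusted p = 0.062) and without siLRWD1-5 replicate 2 (adjusted p = 0.092). Without the second scrambled library the log2 difference was -0.21 (adjusted p = 0.035). With siLRWD1-6 the log2 difference was 0.05 (SE 0.11; adjusted p = 0.78), or 0.21 (adjusted p = 0.051) without that library.

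BMF encodes a BH3-only protein that is held at the dynein light chain DYNLL2 and is released by detachment from the matrix and other stress. It had 44.4, 36.9 and 32.2 CPM with siLRWD1-6, 16.4, 21.3 and 19.2 CPM with siLRWD1-5 and 29.04, 18.95 and 27.3 CPM in scrambled cells. The siLRWD1-6 libraries were above all others. Series differences between siLRWD1-6 and scrambled were 0.61, 0.96 and 0.24. The rise with siLRWD1-6 was 1.504-fold (log2 0.59, SE 0.17, edgeR adjusted p = 0.038), or log2 0.44 (edgeR adjusted p = 0.013) without the second scrambled library. It is the least stable call of that comparison: 6 of 18 alternatives lost it, namely no scaling beyond library size, only the groups compared, and leaving out scrambled replicate 3, siLRWD1-5 replicate 3, siLRWD1-6 replicate 1 or siLRWD1-6 replicate 2, with adjusted p up to 0.15. With siLRWD1-5 the log2 difference was -0.41 (SE 0.18; adjusted p = 0.089) and the libraries overlapped through the second scrambled library, without which the log2 difference was -0.58 (adjusted p = 0.0014).

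BAD, whose protein binds BCL2, BCL-XL and BCL-W and is switched off by survival kinases, had 44.5, 44.1 and 49.3 CPM with siLRWD1-6, 57.2, 64.1 and 64.7 CPM with siLRWD1-5 and 57.6, 60.0 and 54.7 CPM in scrambled cells. All siLRWD1-6 libraries were below the rest. BAD fell 1.25-fold with siLRWD1-6 (log2 -0.32, SE 0.08; adjusted p = 0.015), a call lost without siLRWD1-6 replicate 1 (adjusted p = 0.072) or replicate 2 (adjusted p = 0.070). With siLRWD1-5 the log2 difference was 0.11 (SE 0.08; adjusted p = 0.28).

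The effector BAK1 had 32.0, 31.8 and 37.1 CPM with siLRWD1-6, 34.6, 37.7 and 34.6 CPM with siLRWD1-5 and 36.5, 41.7 and 39.4 CPM in scrambled cells. Its log2 difference was -0.22 (SE 0.09; adjusted p = 0.11) with siLRWD1-6 and -0.14 (SE 0.09; adjusted p = 0.24) with siLRWD1-5, below scrambled in 3 of 3 series each, and neither passed the test. The other effector, BAX, was outside the 10 and averaged 73.5 ± 1.86, 75.9 ± 1.85 and 74.4 ± 4.63 CPM in siLRWD1-6, siLRWD1-5 and scrambled cells (SD, n = 3 each).

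Among the pro-survival genes, MCL1 encodes a protein of rapid turnover that holds BAK, BIM and NOXA. It had 496, 537 and 479 CPM with siLRWD1-6, 404, 423 and 422 CPM with siLRWD1-5 and 349, 451 and 371 CPM in scrambled cells. Every siLRWD1-6 library exceeded every other library, and the siLRWD1-5 libraries lay within the scrambled range. MCL1 rose 1.29-fold with siLRWD1-6 (log2 0.37, SE 0.09; adjusted p = 0.015), in 3 of 3 series. The call was lost without scrambled replicate 1 (adjusted p = 0.051), scrambled replicate 3 (adjusted p = 0.051) or siLRWD1-6 replicate 2 (adjusted p = 0.069), and without the second scrambled library the log2 difference was 0.50. With siLRWD1-5 it was 0.09 (SE 0.09; adjusted p = 0.44), or 0.21 (adjusted p = 0.0069) without that library.

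BCL2L2, which encodes BCL-W, had 56.9, 59.2 and 59.1 CPM with siLRWD1-6, 69.3, 76.5 and 70.9 CPM with siLRWD1-5 and 77.7, 76.7 and 67.5 CPM in scrambled cells. The siLRWD1-6 libraries lay within a narrow band below all others, and the other groups overlapped. BCL2L2 fell 1.27-fold with siLRWD1-6 (log2 -0.34, SE 0.07; adjusted p = 0.0084), a call that held in all 18 alternatives. With siLRWD1-5 the log2 difference was -0.03 (SE 0.07; adjusted p = 0.74).

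BCL2L1, the source of BCL-XL, was abundant and passed the test in no comparison. It had 120.5, 126 and 131 CPM with siLRWD1-6, 117, 125 and 121 CPM with siLRWD1-5 and 120.2, 138 and 117 CPM in scrambled cells. The groups overlapped in every comparison, and the log2 differences against scrambled were 0.01 (SE 0.07) with siLRWD1-6 and -0.05 (SE 0.07) with siLRWD1-5, both of which changed sign without scaling of the libraries. BCL2, the founding member, had 20.5, 19.1 and 15.99 CPM with siLRWD1-6, 17.0, 16.9 and 20.04 CPM with siLRWD1-5 and 18.1, 11.8 and 18.6 CPM in scrambled cells. Its log2 differences of 0.19 (SE 0.16; adjusted p = 0.47) and 0.15 (SE 0.16; adjusted p = 0.51) did not pass the test, and without the second scrambled library they were 0.03 and -0.03.

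**Figure D2:**
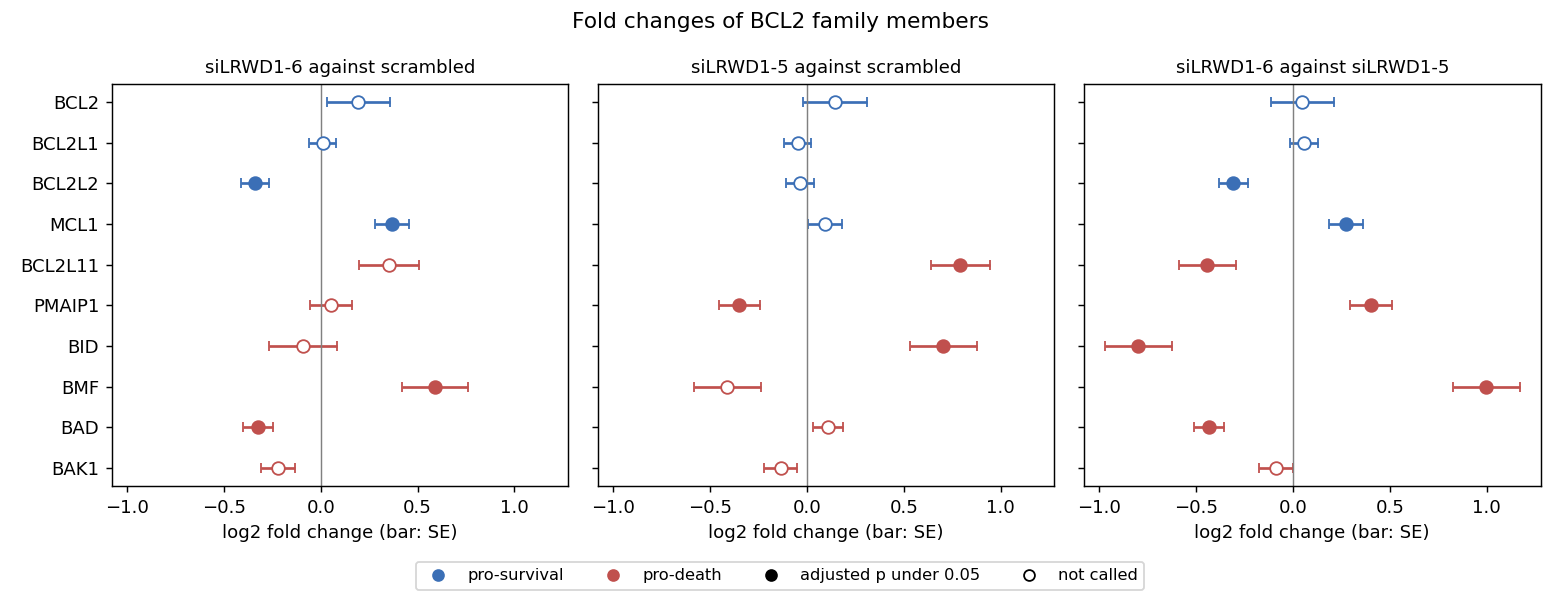
Log2 fold changes of the 10 members in the 3 comparisons, with bars of 1 SE; filled and open points separate members past an adjusted p of 0.05 from the rest. No member is past the threshold on both panels against scrambled, and BID and BMF lie farthest apart between the siRNAs, at -0.80 and 1.00.

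These counts have to be read beside the whole transcriptome. In siLRWD1-5 against scrambled, 3 of the 10 members were called, when 38.8% of all 13648 tested genes were (18.5% higher and 20.3% lower). The share of members called was thus no larger than that of all genes. In siLRWD1-6 against scrambled 4 of 10 were called, against 16.6% of all genes (8.81% higher and 7.78% lower). Leaving out the second scrambled library gave 5 members with siLRWD1-5, adding MCL1 among the higher and BMF among the lower genes, when 49.0% of the 13868 genes then tested were called. It left siLRWD1-6 at 2 higher and 2 lower, when 28.5% of all genes were called. For siLRWD1-6 the number of members called was 2 without scrambled replicate 3, 2 without siLRWD1-6 replicate 1 and 1 without siLRWD1-6 replicate 2. Over all genes these fits called 1927, 1248 and 1369, where the main fit called 2265. The median log2 difference of the 10 members was 0.03 with each siRNA, beside -0.02 with siLRWD1-6 and -0.01 with siLRWD1-5 over all tested genes, and members lay on both sides of it. Both comparisons use the same scrambled libraries.

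In siLRWD1-6 against siLRWD1-5, which shares no scrambled library, 7 of 10 members were called and 43.4% of all genes were (22.4% higher and 20.9% lower, or 3063 and 2856 genes, against 2478 higher and 3609 lower without scaling of the libraries). BMF was 2.00-fold higher with siLRWD1-6 (log2 1.00, SE 0.17; adjusted p = 0.00098), by 1.42, 0.79 and 0.74 in the 3 series. BID was lower with siLRWD1-6 (log2 -0.80, SE 0.17, edgeR adjusted p = 0.0048), at -0.82, -0.81 and -0.76 between same-numbered libraries. BAD was lower by 0.43 (SE 0.08; adjusted p = 0.00088) and PMAIP1 higher by 0.40 (SE 0.11; adjusted p = 0.011). BCL2L2 was lower by 0.31 (SE 0.07; adjusted p = 0.0053). These 5 calls held in all 18 alternatives. MCL1 (log2 0.28, SE 0.09; adjusted p = 0.024) and BCL2L11 (log2 -0.44, SE 0.15; adjusted p = 0.031) each lost the call in 5 of the fits that left out 1 library. For MCL1 these were each of the siLRWD1-5 libraries and siLRWD1-6 replicates 1 and 2, with adjusted p of 0.051 to 0.098. For BCL2L11 they were siLRWD1-5 replicates 1 and 3 and each of the siLRWD1-6 libraries, with adjusted p of 0.064 to 0.12.

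Pro-death transcripts were set against pro-survival transcripts within each library, as the mean log2 CPM of the 6 pro-death members minus that of the 4 pro-survival members. This difference was -1.34, -1.38 and -1.32 in the siLRWD1-6 libraries, -1.26, -1.27 and -1.28 in the siLRWD1-5 libraries and -1.38, -1.32 and -1.34 in the scrambled libraries. The siLRWD1-5 libraries were above all others by a narrow margin, 0.08 on the log2 scale between the means of siLRWD1-5 and scrambled, and the siLRWD1-6 mean differed from scrambled by 0.003. BH3-only genes that rose and BH3-only genes that fell enter this mean with equal weight. Particular pairs differed more. BCL2L11 minus MCL1, the transcripts of BIM and of one of its binding partners, averaged -5.11 ± 0.10 with siLRWD1-6, -4.41 ± 0.28 with siLRWD1-5 and -5.10 ± 0.46 with the scrambled siRNA (SD, n = 3 each, log2 scale). The scrambled mean rests on the second library: the scrambled libraries were at -4.79, -5.63 and -4.89, and without that library the mean was -4.84, with differences from scrambled of -0.27 for siLRWD1-6 and 0.43 for siLRWD1-5, where the full group gave -0.008 and 0.69. PMAIP1 minus MCL1, the transcripts of NOXA and its main partner, averaged -3.41 ± 0.005 with siLRWD1-6, -3.54 ± 0.09 with siLRWD1-5 and -3.10 ± 0.07 with the scrambled siRNA. It was lower in each of the 6 libraries with an LRWD1 siRNA than in any scrambled library. Of this pair, MCL1 was the gene that passed the test with siLRWD1-6, and PMAIP1 with siLRWD1-5. The pairs with BCL2L1 went in different directions. In the siLRWD1-6 libraries BMF minus BCL2L1 was -1.438, -1.771 and -2.021, above every scrambled library (-2.044, -2.851 and -2.098). With siLRWD1-5 it was -2.825, -2.541 and -2.641. BAD minus BCL2L1 was -1.434, -1.517 and -1.406 with siLRWD1-6, below every scrambled library (-1.06, -1.196 and -1.098). With siLRWD1-5 it was -1.036, -0.96 and -0.897. These differences are descriptions with no test. How such a difference varies between libraries does not depend on gene length or, apart from the prior count, on the scaling of a library.

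**Figure D3:**
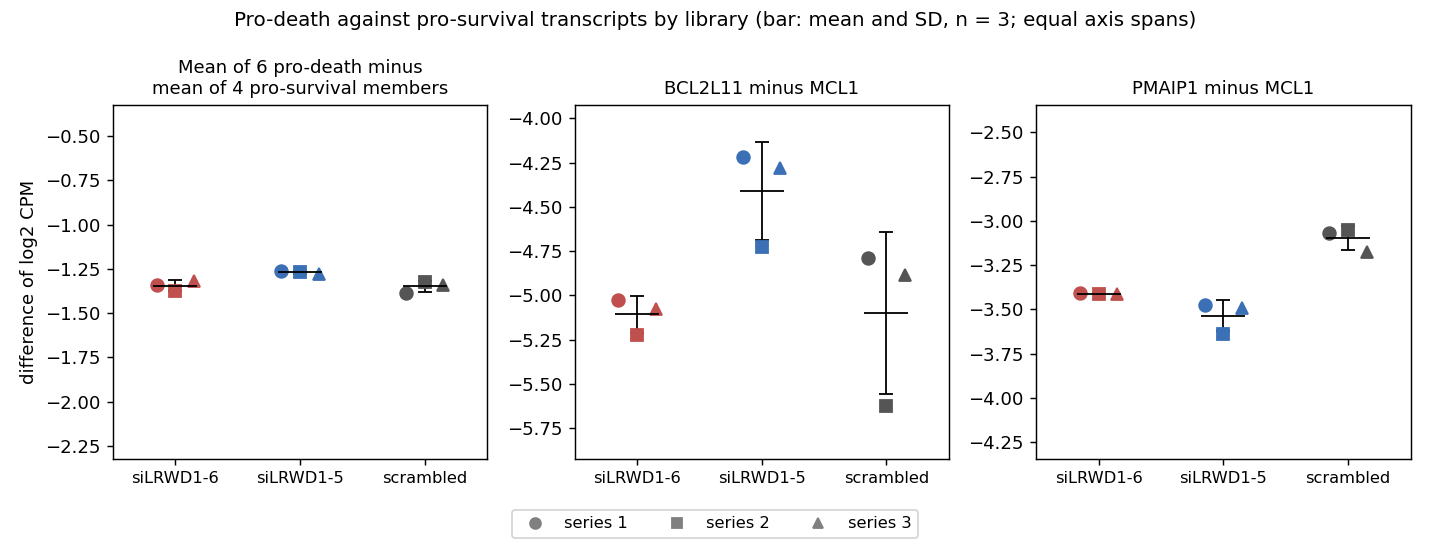
Differences of log2 CPM within each library, with siLRWD1-6, siLRWD1-5 and scrambled from left to right and the mean and SD of 3 libraries as bars; the vertical spans of the 3 panels are equal. The mean over pro-death minus pro-survival members stays between -1.38 and -1.26 in all 9 libraries, whereas PMAIP1 minus MCL1 is below every scrambled library with both siRNAs.

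To compare levels between genes, CPM was divided by the length of each gene's merged exons in kilobases (GENCODE v29). On this scale MCL1 was the most abundant member in each group, with 115 ± 6.92 CPM per kilobase in siLRWD1-6 cells, 95.2 ± 2.45 in siLRWD1-5 cells and 89.3 ± 12.3 in scrambled cells. BCL2L1 followed at 36.5 to 38.0 and BAD at 26.9 to 36.3 as group means. BCL2 was last, at 1.57 in siLRWD1-6 cells, 1.53 in siLRWD1-5 cells and 1.37 in scrambled cells, with BCL2L11 and BMF next above it. Between these ends the order depended on the siRNA. With siLRWD1-6 it ran PMAIP1, BAK1, BCL2L2 and BID, with no overlap between the library ranges of neighbours. With siLRWD1-5, BID (20.7 ± 2.22 CPM per kilobase) stood next below BAD and clear of BCL2L2, while BCL2L2, BAK1 and PMAIP1 (16.01 ± 0.80) overlapped in turn. In scrambled cells PMAIP1, BAK1, BCL2L2 and BID overlapped each with the next. The order also depends on which transcripts are taken as expressed: with the length of the principal transcript, BCL2L11 came above BMF in every group, and BAD came above BCL2L1 in siLRWD1-5 cells (53.6 ± 3.63 against 46.3 ± 1.42 CPM per kilobase) and in scrambled cells (49.6 ± 2.28 against 47.9 ± 4.22). With that length the middle order in siLRWD1-6 cells changed to PMAIP1, BID, BCL2L2 and BAK1 (24.25, 21.23, 16.2 and 15.74). There PMAIP1 overlapped with BID, and BCL2L2 with BAK1. In scrambled cells BID likewise came above BCL2L2 and BAK1 (22.71 against 20.51 and 18.35).

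Some of these loci share bases with other genes, and the library kit does not mark strand. BCL2L2 (chr14:23298790-23311759 on GRCh38, plus strand) overlaps the readthrough gene BCL2L2-PABPN1 on its own strand and PPP1R3E, MCL1 (chr1:150574551-150579738, minus strand) overlaps ADAMTSL4-AS1, BCL2L11 (chr2:111119378-111168447, plus strand) overlaps MIR4435-2HG, BMF (chr15:40087890-40108892, minus strand) overlaps BMF-AS1, BAD (chr11:64269830-64284704, minus strand) overlaps GPR137, BAK1 (chr6:33572547-33580293, minus strand) overlaps GGNBP1 and BCL2L1 (chr20:31664452-31723989, minus strand) overlaps ABALON. Reads of such pairs could not be told apart here. BID (chr22:17734138-17774770, minus strand), PMAIP1 (chr18:59899948-59904306, plus strand) and BCL2 (chr18:63123346-63320128, minus strand) share no exon bases with another annotated gene. Only exons were compared, so genes within introns were not searched.

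Across the 9 libraries, the profile of each member that was called in any comparison was matched to the 10897 other genes with a mean of at least 5 CPM, by the root mean square difference of centred log2 CPM. BAD had the closest match, the kinase gene MAPK3 at 0.026, followed by CDC42EP4 at 0.041. PMAIP1 lay nearest to HERC4 (0.037) and CEP170 (0.056), and MCL1 to C1orf55 (0.042) and LRIF1 (0.057). BCL2L2 lay nearest to BCL7B (0.054) and IFIT3 (0.056), and BCL2L11 to TXNRD3 (0.081) and PABPC4L (0.096). BID was matched to OPTN (0.108) and TNIP1 (0.111), and BMF, with no close neighbour, to FDPS (0.153) and CNOT6L (0.155). Libraries, depth and scaling are shared by all of these genes, and the smaller a member's own spread, the smaller the distance to its nearest gene.

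Family genes outside the 10 were examined as a list of 15, of which 9 were tested. With siLRWD1-5, 2 were higher and 3 lower, and with siLRWD1-6, 1 was higher and 1 lower. BBC3, which encodes the BH3-only protein PUMA, was higher with both siRNAs, at 4.55 ± 1.01 CPM with siLRWD1-6 and 5.02 ± 1.152 CPM with siLRWD1-5, against 2.28 ± 0.64 CPM in scrambled cells (SD, n = 3 each). Its log2 differences were 0.98 (adjusted p = 0.025) and 1.11 (adjusted p = 0.0055), and the siLRWD1-6 call was lost without scrambled replicate 3 and without siLRWD1-6 replicate 1 (log2 0.78). BCL2L13, a mitochondrial membrane protein of the family, was lower with both, at 89.5 ± 2.72 and 64.3 ± 3.74 CPM with siLRWD1-6 and siLRWD1-5, against 108.1 ± 2.54 CPM in scrambled cells. Its siLRWD1-6 call was lost without siLRWD1-6 replicate 1 or replicate 3 (log2 -0.26 and -0.24). BNIP3L, a receptor for the removal of mitochondria, fell with siLRWD1-5 (log2 -0.69, adjusted p = 2.8e-05), as did BNIP2 (log2 -0.38, adjusted p = 0.0025). Between the siRNAs 3 were higher and 1 lower with siLRWD1-6.

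Downstream of the mitochondria, 17 genes of the apoptosome, caspases and their inhibitors were tested. With siLRWD1-5, 5 were higher and 2 lower, and with siLRWD1-6, 3 were higher and 1 lower. HTRA2, a mitochondrial protease that antagonises caspase inhibitors, fell with siLRWD1-5 (log2 -0.42), while APAF1, the scaffold of the apoptosome, rose (log2 0.62). XIAP, an inhibitor of caspases, rose with siLRWD1-6 (log2 0.60, adjusted p = 0.0029). Between the siRNAs 2 were higher and 3 lower with siLRWD1-6, and BIRC3, a ubiquitin ligase of the inhibitor of apoptosis family, differed most of the genes named here, at 14.0 ± 6.08 CPM with siLRWD1-6 and 90.6 ± 27.8 CPM with siLRWD1-5 (log2 -2.70, adjusted p = 0.0010).

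Of 14 death receptor genes, 11 were tested. With siLRWD1-5, 1 was higher and 1 lower, and with siLRWD1-6, 1 was higher and 0 lower by edgeR (1 lower at an unadjusted p under 0.05, 1 by DESeq2 and 0 by limma-voom). Without the second scrambled library these counts became 6 higher and 1 lower with siLRWD1-5 and 4 higher and 0 lower with siLRWD1-6, in a fit that called 49.0% of all genes with siLRWD1-5 and 28.5% with siLRWD1-6. FAS, a death receptor, had 274 ± 11.8 CPM with siLRWD1-6, 135 ± 5.94 CPM with siLRWD1-5 and 220.3 ± 31.0 CPM in scrambled cells. It fell with siLRWD1-5 (log2 -0.71, adjusted p = 0.00010) and was higher with siLRWD1-6 than with siLRWD1-5 (log2 1.03, adjusted p = 5.5e-06). Its difference between siLRWD1-6 and scrambled (log2 0.32, adjusted p = 0.032) lost the call in 7 of 18 alternatives: with only the groups compared in the fit, and without scrambled replicate 1 or 3, siLRWD1-5 replicate 1 or any of the siLRWD1-6 libraries.

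Of 11 genes for partners and turnover factors of family proteins, 3 were higher and 1 lower with siLRWD1-5, and 0 were higher and 2 lower with siLRWD1-6 by edgeR (2 higher at an unadjusted p under 0.05, 0 by DESeq2 and limma-voom). Between the siRNAs 3 were lower with siLRWD1-6. BTRC, a substrate receptor of the SCF ubiquitin ligase that acts on BIM and MCL1 proteins among others, had 33.1 ± 1.69 CPM with siLRWD1-6, 65.9 ± 0.82 CPM with siLRWD1-5 and 43.5 ± 3.21 CPM in scrambled cells. It passed the test in all 3 comparisons (log2 -0.39 with siLRWD1-6, 0.60 with siLRWD1-5 and -0.99 between the siRNAs) and in all 18 alternatives of each. USP9X, which removes ubiquitin from MCL1, rose with siLRWD1-5 (log2 0.33). The dynein light chain gene DYNLL1 fell with siLRWD1-6 (log2 -0.33) and with siLRWD1-5 (log2 -0.2), where the call was lost in 14 of 18 alternatives.

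Of 13 genes for transcription factors known to act on family genes, 2 were higher and 3 lower with siLRWD1-5, and 4 were higher and 0 lower with siLRWD1-6 by edgeR (3 lower at an unadjusted p under 0.05, 0 by DESeq2 and limma-voom). Between the siRNAs 4 were higher and 1 lower with siLRWD1-6. Without the second scrambled library these counts became 4 higher and 4 lower with siLRWD1-5 and 7 higher and 3 lower with siLRWD1-6, again beside 49.0% and 28.5% of all genes. ATF4, the main transcription factor of the integrated stress response, had 449 ± 31.2 CPM with siLRWD1-6, 172 ± 9.27 CPM with siLRWD1-5 and 235 ± 15.5 CPM in scrambled cells. It rose with siLRWD1-6 (log2 0.93, adjusted p = 1.3e-05) and fell with siLRWD1-5 (log2 -0.45, adjusted p = 0.00056). DDIT3, which encodes CHOP, likewise rose with siLRWD1-6 (log2 0.78) and fell with siLRWD1-5 (log2 -0.80). STAT3 fell with siLRWD1-5 (log2 -0.62). FOXO3, a forkhead factor for which BCL2L11 is a known target, was higher with both siRNAs, at 31.8 ± 2.26 CPM with siLRWD1-6 and 27.9 ± 2.08 CPM with siLRWD1-5, against 22.3 ± 1.23 CPM in scrambled cells (log2 0.51 and 0.32). The siLRWD1-5 call of FOXO3 was lost without scrambled replicate 1 (log2 0.28) and without siLRWD1-5 replicate 3 (log2 0.26).

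**Figure D4:**
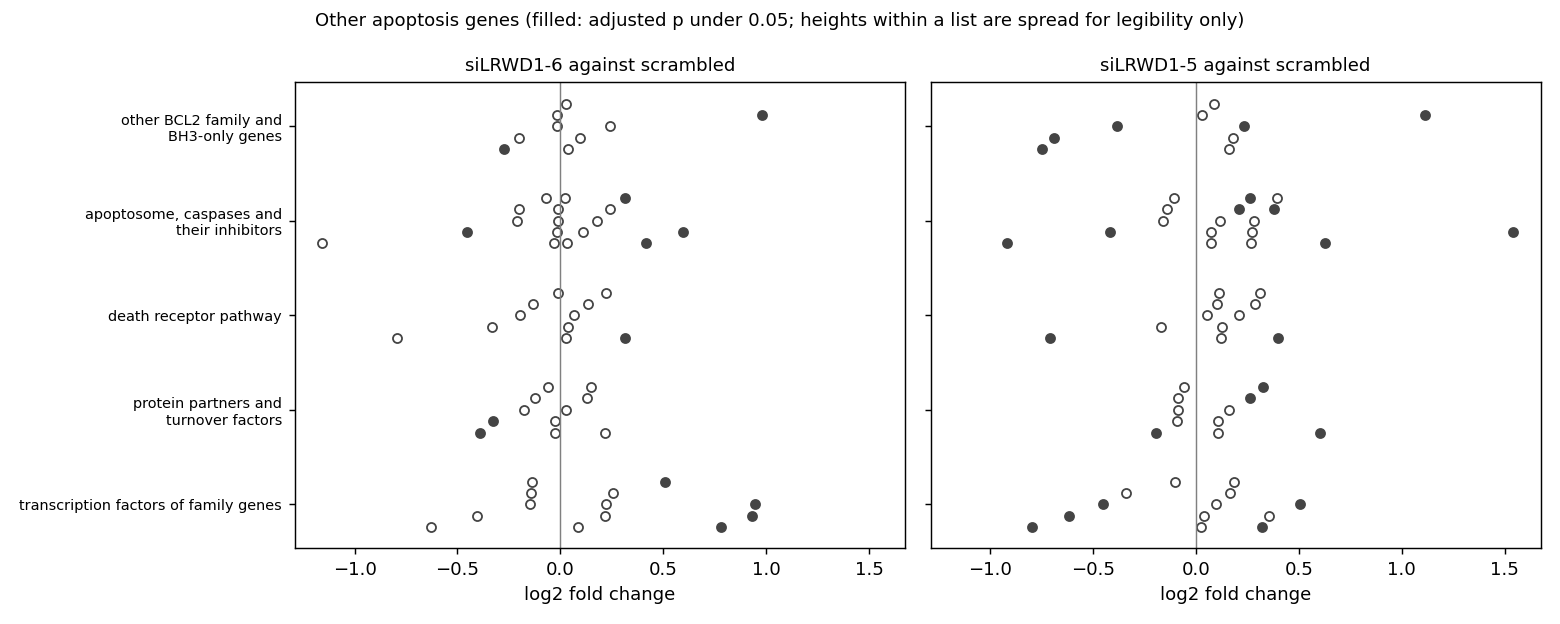
Log2 fold changes of the tested genes of the 5 other apoptosis lists, with siLRWD1-6 against scrambled on the left and siLRWD1-5 against scrambled on the right; filled points passed an adjusted p of 0.05, and heights within a list only spread the points. Of the 61 tested genes, 9 were higher and 4 lower with siLRWD1-6, and 13 higher and 10 lower with siLRWD1-5.

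Over all 61 tested genes of these lists, 21.3% were called with siLRWD1-6 and 37.7% with siLRWD1-5, beside the 16.6% and 38.8% of all tested genes given above. Without the second scrambled library 17 were higher and 8 lower with siLRWD1-6, and 24 higher and 10 lower with siLRWD1-5, out of 62 tested, when 28.5% of all genes were called with siLRWD1-6 and 49.0% with siLRWD1-5. With the series number as a block, 11 were higher and 6 lower with siLRWD1-6, and 18 higher and 10 lower with siLRWD1-5, out of 61. Over all genes that fit called 2815 with siLRWD1-6 and 5925 with siLRWD1-5, where the main fit called 2265 and 5292. Between the siRNAs, in the main fit, 10 of the 61 were higher and 12 lower with siLRWD1-6.

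Promoter windows of RefSeq (GRCh38.p14, 250 bases before to 50 after a start) were found for 8 of the 10 members, 15 windows in all, and were searched on both strands for 3 words of factors on the last list. The forkhead word GTAAACA was in 1 window, that of BCL2L11, and in 3.42% of all 35116 windows. The cyclic AMP response word TGACGTCA (1.85% of all windows) and the composite word TGATGNAAN of ATF4 and CEBP factors (3.61%) were in none of the member windows. The forkhead word of BCL2L11, which rose with siLRWD1-5 as did BID, is shown in capitals in its surroundings at chr2:111120671-111120717 on the plus strand. The word starts 223 bases before the RefSeq start of its window. That start differs from the GENCODE start of the gene (111119378), and the word lies inside the GENCODE gene.
BCL2L11 promoter: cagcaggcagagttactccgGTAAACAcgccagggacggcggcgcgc
A word in a window is a match of letters only, and binding was not measured.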

How the data were processed

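RNA of A673 cells was sequenced in 9 libraries, 3 per siRNA group as the labels assign them. The values deposited by the authors are raw counts, 1 row per symbol and 1 column per library. The submitters' processing notes name TopHat2 2.0.10, HTSeq 0.5.4p3, bcl2fastq 1.8.4 and hg19; strand setting and annotation: not given in the sources used here. Coordinates, lengths and coding bases here come from GENCODE v29 (GRCh38) and promoters from RefSeq, matched by symbol; no hg19 position was used.

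Genes passing filterByExpr (13648) were scaled by TMM and tested with the robust quasi-likelihood fit of edgeR 4.0.16 (R 4.3.3) over all 9 libraries, with group as the only term and Benjamini-Hochberg adjustment over all tested genes; adjusted p under 0.05 is a call. SEs were derived from the F statistic. Mean log2 CPM used a prior count of 2. The script was tested on simulated data. The 10 members, the lists and the tests were chosen with earlier results of these data known. The rule for naming genes took all members, LRWD1, at most 4 called genes per list and comparison by smallest p, and the 2 nearest genes of each called member.

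Alternatives were RLE factors, no scaling, other filters, DESeq2 1.42.0, limma-voom (limma 3.58.1), a replicate block, fewer libraries, and each library left out. Deviations from group means of same-numbered libraries correlated at 0.25, 0.37 and 0.11 between siLRWD1-5 and scrambled. Scrambled replicate 3 correlated better with siLRWD1-5 replicate 1 (0.14) than with siLRWD1-5 replicate 3 (0.11), so the series numbers are only a hint of pairing. Library totals of 11971179 to 15674452 set the counting error, which is part of the replicate spread. Proteins were not analysed here. Results of some genes open to naming by this rule are left out.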

Additional observations from a re-analysis of the deposited data

How the results depend on the processing

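Of 540 values of single members under 18 alternatives each, 493 kept their direction and side of the threshold, 25 lost the call, 4 gained it and 18 changed sign. Leaving out 1 library at a time gave 2 to 5 members called with siLRWD1-5, 1 to 4 with siLRWD1-6 and 5 to 7 between the siRNAs. Over all genes these fits called 4189 to 6790 with siLRWD1-5 and 1248 to 3953 with siLRWD1-6. Between the siRNAs the main fit called 43.4% of all genes. Sign changes concerned uncalled values. The largest value after a sign change was 0.16, for BID with siLRWD1-6 without scrambled replicate 2, from -0.09 in the main fit. Without scaling, the log2 difference of BCL2L1 was 0.0062 with siLRWD1-5, -0.0045 with siLRWD1-6 and -0.0107 between the siRNAs, that of BCL2L2 with siLRWD1-5 was 0.0186 and that of BCL2 between the siRNAs was -0.0208. With only series 1 and 3, BCL2L1 with siLRWD1-5 was 0.0126, BID with siLRWD1-6 0.0738 and BCL2 between the siRNAs -0.0063. With 1 library left out, the log2 difference with siLRWD1-5 ranged from -0.0326 to 0.25 for BCL2, -0.094 to 0.0239 for BCL2L1 and -0.10 to 0.0018 for BCL2L2, that with siLRWD1-6 from -0.0332 to 0.0945 for BCL2L1, -0.0167 to 0.21 for PMAIP1 and -0.24 to 0.16 for BID, and that between the siRNAs from -0.03 to 0.15 for BCL2. The mean pro-death minus pro-survival difference between siLRWD1-5 and scrambled was 0.079, and 0.061 to 0.092 with 1 library left out (spread 0.023). Leaving out 1 of 3 libraries cannot move this difference past its spread. The limit of 5 CPM removed no member. These alternatives therefore could not have shown a larger move. The cause of the sign changes was not tested. Over all genes, siLRWD1-6 calls numbered 2265, but 3579 with only series 1 and 3, 3953 without scrambled replicate 2, 1248 without siLRWD1-6 replicate 1 and 1369 without siLRWD1-6 replicate 2. The replicate block gave 3, 4 and 7 members called with siLRWD1-5, with siLRWD1-6 and between the siRNAs, and changed no call of a member. Of the other lists' counts it moved those of death receptor genes and of family genes outside the 10 by 1.5 times or more. Death receptor genes became 2 higher and 1 lower with siLRWD1-5 and 1 higher and 1 lower with siLRWD1-6. Family genes outside the 10 became 2 higher and 1 lower with siLRWD1-6. Over all genes the block called 5925 with siLRWD1-5 and 2815 with siLRWD1-6. Same-numbered libraries correlated at 0.28, 0.24 and 0.05 between siLRWD1-6 and scrambled and at 0.17, 0.23 and 0.09 between the siRNAs. Scrambled replicate 3 correlated best with another number of siLRWD1-6 (0.08), so there too the numbers are only a hint of pairing. At these depths the reads limit BBC3, at a few CPM, more than any of the 10 members.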
